A study of Homo sapiens with 24 samples.

Results

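The genes described here are 10 genes of the Hippo pathway: the coactivator YAP1, the DNA-binding factors TEAD1 and TEAD4, and the genes CTGF, CYR61, ANKRD1, AMOTL1, AMOTL2, LATS2 and AXL, which are widely used as readouts of YAP and TEAD. They were taken by gene symbol from a table of 23368 genes, and all 10 were found and passed the filter on low counts. The 10 were chosen with earlier results of these data known, so their counts and medians are not independent evidence. The table uses the older names CTGF and CYR61 for the genes now called CCN2 and CCN1. YAP1, TEAD1 and TEAD4 are in the group as the coactivator and 2 of its partners, and the other 7 as readout genes.

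The Hippo pathway is a kinase cascade in which STK3 and STK4, helped by SAV1, activate LATS1 and LATS2, and these phosphorylate YAP and its relative TAZ (gene WWTR1), which keeps them in the cytoplasm. Unphosphorylated YAP enters the nucleus and binds TEAD factors at their target genes, of which CTGF, CYR61 and ANKRD1 are the most used. Some targets act back on the cascade: LATS2 is one of its kinases, and the angiomotins AMOTL1 and AMOTL2 hold YAP at cell junctions. In stomach epithelium YAP is known for its role in growth and regeneration and for its activity in gastric carcinoma.

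Transcripts were counted in 24 RNA libraries from AGS, an established line of human gastric adenocarcinoma cells with genotype WT in the labels, all collected at 24 h. The 6 groups of 4 biological replicates were control cells and cells given PI103 at 0.7 µM (an inhibitor of PI3 kinase and mTOR), PD0325901 at 0.035 µM (an inhibitor of MEK), (5Z)-7-oxozeaenol at 0.5 µM (an inhibitor of TAK1, called oxozeaenol below), PI103 with oxozeaenol, or PI103 with PD0325901. In the 2 combinations each agent was at 50% of its single concentration. The replicate number, 1 to 4, is also the batch number in the labels, and whether the control cultures were given vehicle is not stated. All groups are 1 cell line.

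Libraries held 38.1 M to 84.2 M counts in genes. The 6 epithelial markers summed to 4624 to 7533 CPM (counts scaled to 1 M per library) in every library, while endothelial markers summed to at most 0.437 CPM and leukocyte markers to at most 0.14 CPM. Fibroblast markers summed to 8.18 to 34.4 CPM, most of it COL1A1, and COL1A2 and DCN had at most 1 count in any library. The fibroblast sum moved with treatment, from 14.3 to 17.4 CPM in control libraries to 32.3 to 34.4 CPM with PI103 and 8.18 to 10.0 CPM with oxozeaenol, and its part in the results was not tested. No library stood apart over all 10 genes, but with PD0325901 and with PI103 and PD0325901 replicate 2 was the lowest of its group for several of them, and results without these libraries are given where they differ.

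To show where TEAD could bind at these genes, the 250 bases upstream of each transcript start were searched in the RefSeq promoter sequences of GRCh38.p14. The search used the TEAD core motif GGAATG on either strand (CATTCC when read on the other strand). Of the 10 genes 7 had an entry there (9 windows in all), and CYR61, TEAD1 and TEAD4 had none. CTGF had 3 matches, 169, 104 and 95 bases before its start, and ANKRD1 had 2, 220 and 128 bases before its start. YAP1 had 1 match, 162 bases before its start, and AMOTL2 and AXL had 1 each, in 1 of their 2 windows. AMOTL1 and LATS2 had none in the window searched, which for AMOTL1 lies upstream of an internal start. Of 35116 such windows of all genes, 11.9% held at least 1 match, 0.94% at least 2 and 0.0826% at least 3. The AP-1 motif TGANTCA, which also reads as itself on the other strand, was found once, as TGATTCA 195 bases before the ANKRD1 start and apart from both TEAD matches, and 6.57% of all windows held it. A match is a description of the letters and not a measured binding site. The upstream sequence of CTGF, the window with most matches, and 30 bases around the other matches follow, read 5′ to 3′ on the strand of the gene, with GGAATG or CATTCC in capitals.
CTGF, chr6:131951374-131951622, minus strand: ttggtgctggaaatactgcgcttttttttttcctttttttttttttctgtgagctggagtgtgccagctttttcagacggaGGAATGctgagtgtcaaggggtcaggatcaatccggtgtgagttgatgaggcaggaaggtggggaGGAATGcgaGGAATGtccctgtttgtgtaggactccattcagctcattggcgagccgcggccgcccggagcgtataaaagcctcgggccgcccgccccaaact
ANKRD1, chr10:90921290-90921319, minus strand: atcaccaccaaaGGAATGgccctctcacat
ANKRD1, chr10:90921198-90921227, minus strand: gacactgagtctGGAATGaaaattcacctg
YAP1, chr11:102110273-102110302, plus strand: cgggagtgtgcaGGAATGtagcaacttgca
AMOTL2, chr3:134374499-134374528, minus strand: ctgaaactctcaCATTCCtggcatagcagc
AXL, chr19:41226531-41226560, plus strand: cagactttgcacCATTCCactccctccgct
In GENCODE release 29 the gene model of ANKRD1 spans chr10:90912096-90921276 on the minus strand, so that the match 128 bases before the RefSeq start lies inside its first exon and the match 220 bases before it lies upstream of the gene. The AMOTL2 and AXL matches lie inside the models of their own genes, upstream of an internal start. The AMOTL1 window, chr11:94768106-94768355, also lies inside the model of its gene, so the start of that model was not searched. All 250 bases of the YAP1 window lie in annotated exons of the gene AP001527.2.

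With the MEK inhibitor PD0325901 alone 9 of the 10 genes fell, ANKRD1 by the most, and only TEAD1 did not pass the test. A change was called where edgeR's quasi-likelihood F test gave an adjusted p under 0.05 over the 13947 genes tested. Of all genes tested, 58.6% were called with PD0325901, 29.9% lower and 28.7% higher. With oxozeaenol 6 fell and none rose, where 51.9% of all genes were called, 26.1% lower and 25.7% higher. With PI103 3 fell and 2 rose, where 51.4% of all genes were called, 25.2% lower and 26.2% higher. In the combination of PI103 and oxozeaenol 5 fell and 1 rose, where 55.6% of all genes were called, 27.9% lower and 27.7% higher. In the combination of PI103 and PD0325901 7 fell and none rose, where 64.8% of all genes were called, 32.6% lower and 32.2% higher. The number called, without regard to direction, was thus near the share of all genes for PI103 (5 of 10), oxozeaenol (6 of 10) and both combinations (6 and 7 of 10). The median log2 change of the 10 genes was -0.88 with PD0325901, -0.52 with oxozeaenol and -0.08 with PI103. In the combinations it was -0.20 with oxozeaenol and -0.53 with PD0325901. Over all genes tested the medians lay between -0.02 and 0.02. CYR61, ANKRD1 and AMOTL2, 3 of the 10, fell in all 5 treatments, as did 13.5% of all genes tested, and TEAD1 was called in none. The 5 treatments were each compared with the same 4 control libraries. Some calls were lost on leaving out 1 library, as given by gene below. These were TEAD4 and LATS2 with PD0325901, LATS2 with oxozeaenol and AMOTL1 with PI103. In the combinations they were CTGF and AMOTL1 with PI103 and oxozeaenol, and AXL with PI103 and PD0325901.

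**Figure D1:**
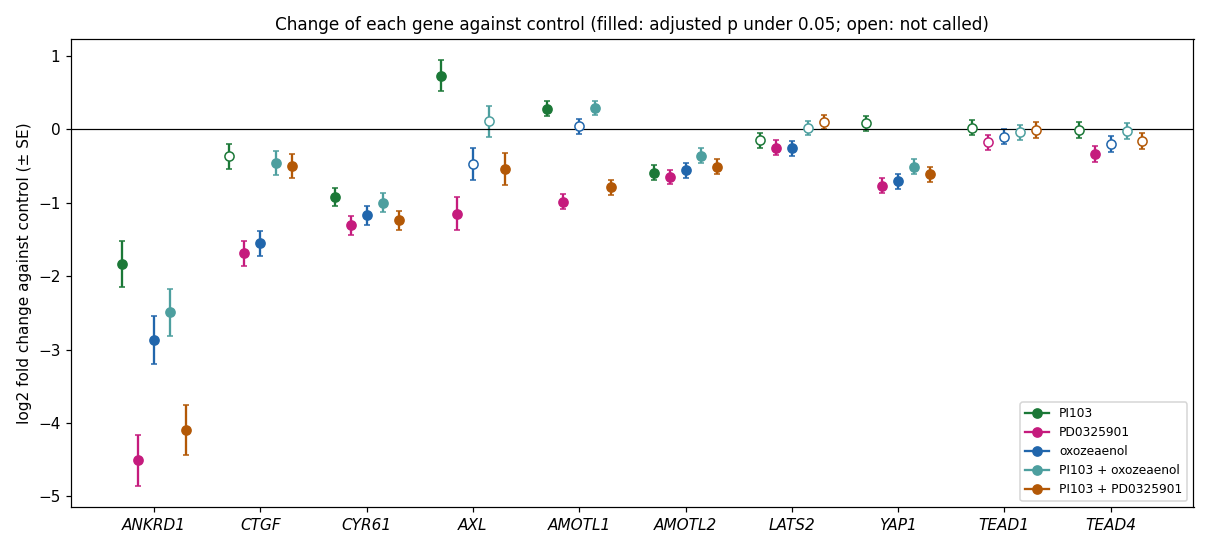
Log2 fold change of each of the 10 genes against control (vertical axis) for the 5 treatments, by colour; bars are ± 1 SE of the fit, filled points have an adjusted p under 0.05 and open points do not. ANKRD1 spans -1.83 to -4.51, CYR61 and AMOTL2 are below 0 in all treatments, and TEAD1 is open in all 5.

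Per kilobase of annotated exon, the control level of ANKRD1 was 581 ± 162 CPM per kb (SD, n = 4). CTGF at 67.1 ± 4.70 CPM per kb and YAP1 at 55.9 ± 5.40 CPM per kb (both SD, n = 4) came next. Then came CYR61 at 32.6, AMOTL2 at 28.1, TEAD4 at 19.9 and TEAD1 at 13.7 CPM per kb. LATS2 had a mean of 5.06, AMOTL1 of 2.34 and AXL of 0.668 CPM per kb in control. With PD0325901 ANKRD1 was at 25.4 ± 10.6 CPM per kb and YAP1 at 32.7 ± 5.03 CPM per kb (both SD, n = 4). The gap between these means was smaller than the SD of ANKRD1, and their order was not tested. Replicate 2 was the lowest ANKRD1 library of that group, at 19.9 CPM before scaling by length. Counts for AXL, the lowest of the 10, still ran from 63 to 423 per library.

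YAP1 (chr11:102110461-102233423, plus strand) encodes the coactivator itself. The control libraries of batches 1 to 4 held 365, 344, 389 and 309 CPM of YAP1. With PD0325901 YAP1 was at 224, 241, 174 and 185 CPM, and with oxozeaenol at 230, 224, 210 and 195 CPM. All of these lay below every control library. The share of all genes whose libraries do not overlap those of control is not given, here or below. YAP1 fell 1.71-fold with PD0325901 (log2 -0.77, SE 0.10, adjusted p = 4.58e-07) and 1.64-fold with oxozeaenol (log2 -0.71, SE 0.10, adjusted p = 2.34e-06). Since RNA was measured from whole cultures, fewer cells with the transcript and less transcript per cell cannot be told apart, here and below. With PI103 YAP1 was at 403, 352, 408 and 330 CPM, overlapping control, with a log2 difference of 0.08 and a 95% interval from -0.12 to 0.28 (adjusted p = 0.507). The combination of PI103 and oxozeaenol held 256, 258, 256 and 218 CPM of YAP1, and that of PI103 and PD0325901 held 251, 213, 235 and 224 CPM. Both combinations were below every control library, by 1.42-fold (adjusted p = 0.000143) and 1.53-fold (adjusted p = 1.06e-05). Ordered by mean, YAP1 was highest with PI103 (373 CPM) and control (352 CPM), which did not differ beyond their spread. The other 4 groups, from 247 down to 206 CPM, did not differ between neighbours (adjusted p from 0.434 to 0.691). Their ends did: YAP1 was 1.20-fold higher with PI103 and oxozeaenol than with PD0325901 (adjusted p = 0.0455). That call was lost under several alternatives. In all 4 batches the YAP1 change with PD0325901, oxozeaenol and both combinations was below 0. In GENCODE release 29, 10.0% of the YAP1 exon bases lie opposite the gene AP000942.2, and whether reads were counted by strand is not stated.

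Of the DNA-binding factors, TEAD1 (chr11:12674591-12944483) was called in no treatment. TEAD1 ranged over 126 to 166 CPM in control and over 94.9 to 144 CPM with PD0325901, the group with its lowest mean. That log2 difference was -0.18 with a 95% interval from -0.38 to 0.02 (adjusted p = 0.142), and 2 of the 4 batches were below 0. The other 4 treatments had TEAD1 log2 differences between -0.10 and 0.02. TEAD4 (chr12:2959330-3040673) held 44.4, 46.4, 44.2 and 45.5 CPM in control and 40.8, 26.0, 39.5 and 35.9 CPM with PD0325901. The TEAD4 ranges did not overlap, and TEAD4 fell 1.27-fold with PD0325901 (log2 -0.34, SE 0.11, adjusted p = 0.0101). The call rested on replicate 2 of PD0325901: without it the fall was 1.14-fold (log2 -0.19, adjusted p = 0.109). TEAD4 was not called in the other 4 treatments, with log2 differences between -0.20 and -0.01. Of these, 2 were called on leaving out 1 library, the fall with oxozeaenol without its replicate 1 (adjusted p = 0.0425) and that with PI103 and PD0325901 without its replicate 1 (adjusted p = 0.0474).

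**Figure D2:**
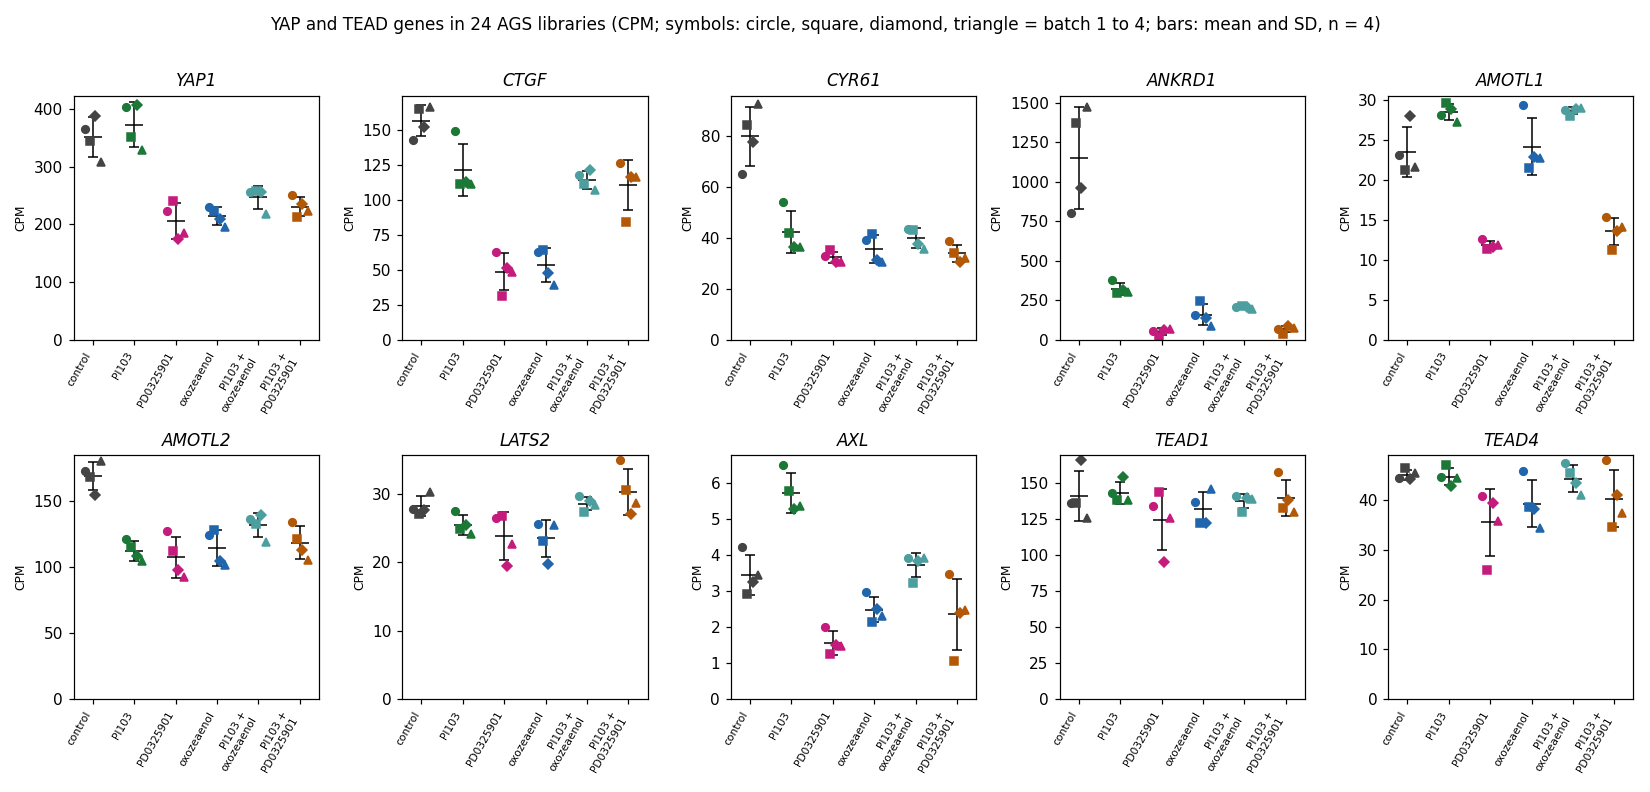
CPM of each of the 10 genes (vertical axes, from 0) in the 24 libraries by group; symbols mark batches 1 to 4, and bars are the mean and SD of 4 libraries. ANKRD1, CYR61 and AMOTL2 have no overlap between control and any treatment, and the share of all genes without such overlap is not given. CTGF is lowest with the single agents PD0325901 and oxozeaenol, and the 6 groups of TEAD1 overlap.

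ANKRD1 (chr10:90912096-90921276, minus strand), a nuclear ankyrin repeat protein first known from heart and skeletal muscle, changed most of the 10. In control libraries ANKRD1 was at 802, 1370, 958 and 1472 CPM. With PD0325901 it was at 53.8, 19.9, 60.2 and 67.3 CPM, and with oxozeaenol at 157, 246, 139 and 88.6 CPM. The PD0325901 libraries thus held 4.37% of the control mean, and the oxozeaenol libraries 13.7%. ANKRD1 fell 22.9-fold with PD0325901 (log2 -4.51, SE 0.35, adjusted p = 3.39e-10) and 7.31-fold with oxozeaenol (log2 -2.87, SE 0.32, adjusted p = 1.82e-07). Without replicate 2 of PD0325901, its lowest library, the fall was 18.7-fold. With PI103 the ANKRD1 values were 380, 293, 315 and 305 CPM, all below control and above the other 4 groups. The fall with PI103 was 3.56-fold (log2 -1.83, SE 0.31, adjusted p = 3.89e-05). PI103 with oxozeaenol gave 208, 216, 204 and 193 CPM of ANKRD1, a 5.61-fold fall (log2 -2.49, SE 0.32, adjusted p = 8.15e-07). PI103 with PD0325901 gave 70.3, 39.0, 84.2 and 77.1 CPM, a 17.0-fold fall (log2 -4.09, SE 0.34, adjusted p = 7.42e-10). Within batches the log2 change of ANKRD1 ran from -6.10 to -3.90 with PD0325901 and from -4.05 to -2.36 with oxozeaenol.

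In order of mean level, ANKRD1 fell from control (1151 CPM) to PI103 (323 CPM), PI103 with oxozeaenol (205 CPM), oxozeaenol (157 CPM), PI103 with PD0325901 (67.7 CPM) and PD0325901 (50.3 CPM). The step from control to PI103 was called, as was the step of log2 1.22 from oxozeaenol to PI103 with PD0325901 (adjusted p = 0.00293). The other steps were not: log2 0.66 between PI103 and PI103 with oxozeaenol (adjusted p = 0.141), 0.38 between PI103 with oxozeaenol and oxozeaenol (adjusted p = 0.427), and 0.43 between the combination with PD0325901 and PD0325901 alone (adjusted p = 0.352). Within batches 1 to 4, PI103 with PD0325901 minus oxozeaenol was log2 -1.15, -2.66, -0.72 and -0.20 for ANKRD1. Between the single agents, ANKRD1 was 3.13-fold higher with oxozeaenol than with PD0325901 (adjusted p = 0.000541). That difference was log2 1.54, 3.63, 1.20 and 0.40 within batches 1 to 4. Both differences were thus largest in batch 2 and smallest in batch 4. The ANKRD1 level was 2.05-fold lower with oxozeaenol than with PI103 (adjusted p = 0.00882).

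The matricellular proteins CTGF and CYR61, secreted CCN family members that bind integrins, followed different patterns. CTGF (chr6:131948176-131951373, minus strand) was at 143, 165, 152 and 166 CPM in control, at 63.0, 31.3, 51.3 and 48.5 CPM with PD0325901 and at 62.6, 63.9, 48.0 and 38.9 CPM with oxozeaenol. Both single agents took CTGF below every control library, to 30.9% and 34.0% of the control mean. The falls were 3.23-fold with PD0325901 (log2 -1.69, SE 0.17, adjusted p = 9.98e-09) and 2.94-fold with oxozeaenol (log2 -1.55, SE 0.17, adjusted p = 6.07e-08). With PI103 CTGF was at 149, 111, 113 and 111 CPM. Only replicate 1 reached the control range, and the log2 difference of -0.37 was not called (SE 0.17, adjusted p = 0.0624). Within batches it was 0.06 in batch 1 and -0.43 to -0.58 in the other 3; with the batch as a block the CTGF difference was called (log2 -0.39, adjusted p = 0.0307), as it was without PI103 replicate 1 (log2 -0.49, adjusted p = 0.0241) and in DESeq2 (adjusted p = 0.0424). The combinations held 118, 111, 121 and 107 CPM of CTGF with oxozeaenol and 126, 84.3, 116 and 116 CPM with PD0325901. These were all below control, by 1.37-fold (log2 -0.46, adjusted p = 0.0215) and 1.42-fold (log2 -0.50, adjusted p = 0.0104), and all above every library of PD0325901 or oxozeaenol alone. The call with PI103 and oxozeaenol was lost without its replicate 4 or without control replicate 4 (adjusted p up to 0.0537). In order of mean, CTGF was at 157 CPM in control, 121 with PI103, and 114 and 111 in the combinations with oxozeaenol and PD0325901. No neighbours among these differed by the test, though both combinations were called lower than control. Oxozeaenol and PD0325901 alone followed at 53.4 and 48.5 CPM. The step from PI103 with PD0325901 to oxozeaenol was log2 1.05 (adjusted p = 2.72e-05). Of the CTGF exon bases, 8.3% lie opposite AL133346.1.

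CYR61 (chr1:85580761-85583962, plus strand) fell to similar levels in all 5 treatments. Its control libraries held 65.2, 84.2, 77.9 and 92.8 CPM. The 20 treated libraries held between 30.4 and 54.2 CPM, all below control. The CYR61 fall was 1.89-fold with PI103 (log2 -0.92, SE 0.13, adjusted p = 1.15e-06), 2.48-fold with PD0325901 (log2 -1.31, SE 0.13, adjusted p = 2.88e-09) and 2.25-fold with oxozeaenol (log2 -1.17, SE 0.13, adjusted p = 3.17e-08). It was 2.00-fold with PI103 and oxozeaenol (adjusted p = 2.47e-07) and 2.36-fold with PI103 and PD0325901 (adjusted p = 4.43e-09). No neighbours in the order of the treated means, 42.3, 40.0, 35.5, 33.9 and 32.3 CPM, differed by the test. The ends of that order did: CYR61 was 1.31-fold lower with PD0325901 than with PI103 (adjusted p = 0.0137), a call lost without PI103 replicate 1 (adjusted p = 0.105). Within batches the smallest CYR61 change was with PI103 in batch 1 (log2 -0.27), where the control library was lowest and the PI103 library highest of their groups.

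AXL (chr19:41219203-41261766, plus strand), a receptor tyrosine kinase, was low and moved in opposite directions. Control libraries held 4.21, 2.91, 3.24 and 3.43 CPM of AXL. With PI103 it was at 6.50, 5.76, 5.28 and 5.35 CPM, above every control library, and with PD0325901 at 2.01, 1.24, 1.51 and 1.47 CPM, below every control library. AXL rose 1.66-fold with PI103 (log2 0.73, SE 0.21, adjusted p = 0.00515) and fell 2.22-fold with PD0325901 (log2 -1.15, SE 0.22, adjusted p = 8.36e-05). The batches gave 0.62 to 0.98 for PI103 and -1.21 to -1.06 for PD0325901 on the log2 scale. With oxozeaenol AXL was at 2.98, 2.15, 2.50 and 2.31 CPM, a log2 difference of -0.47 that was not called (adjusted p = 0.0701) but was below 0 in all 4 batches and called with the batch as a block (log2 -0.47, adjusted p = 0.0199) and in DESeq2 (adjusted p = 0.0460). It was also called without oxozeaenol replicate 1 (adjusted p = 0.0397). With PI103 and oxozeaenol AXL was at 3.91, 3.22, 3.84 and 3.92 CPM, overlapping control (log2 0.11, 95% interval -0.30 to 0.53). With PI103 and PD0325901 it was at 3.47, 1.06, 2.39 and 2.48 CPM. That fall of 1.46-fold (log2 -0.54, adjusted p = 0.0296) rested on replicate 2: without it the AXL difference was log2 -0.30 (adjusted p = 0.13). It was also lost without replicate 3 of the combination or control replicate 1.

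GAS6, which encodes the ligand of AXL, rose in all 5 treatments. Control libraries had a GAS6 mean of 39.0 ± 1.85 CPM (SD, n = 4), against 105 ± 6.66 CPM with PI103, 119 ± 13.3 CPM with PD0325901 and 115 ± 2.54 CPM with oxozeaenol. In the combinations it was 142 ± 10.5 CPM with oxozeaenol and 141 ± 15.6 CPM with PD0325901 (SD, n = 4 in each group). The log2 changes of GAS6 ran from 1.43 with PI103 (SE 0.09, adjusted p = 1.84e-12) to 1.86 in each combination (adjusted p = 2.71e-14 and 8.18e-15). GAS6 thus rose where AXL rose and where AXL fell. Of its exon bases 7.0% lie opposite GAS6-AS1. Of the 4 listed genes of this family 3 were tested, and PROS1, another ligand, was not. Besides GAS6, TYRO3 and MERTK, 2 more receptors of GAS6, changed in part: TYRO3 rose with PI103 (log2 0.59, adjusted p = 0.00115) and with PI103 and oxozeaenol (log2 0.74), and MERTK rose in the 4 treatments other than PI103 (log2 0.44 to 0.96). TYRO3 fell with PD0325901 (log2 -0.39, adjusted p = 0.0227), a call lost under 2 of 13 alternatives, and was not called with oxozeaenol (log2 0.13) or with PI103 and PD0325901 (log2 0.07). MERTK was not called with PI103 (log2 0.13). These 2 receptors were named after their values were seen, apart from the fall of TYRO3.

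Of the genes that act back on the cascade, AMOTL1 (chr11:94706431-94876753, plus strand) separated MEK inhibition from the other treatments. AMOTL1 held 23.1, 21.2, 28.0 and 21.6 CPM in control, 12.6, 11.3, 11.6 and 11.9 CPM with PD0325901 and 15.3, 11.2, 13.6 and 14.1 CPM with PI103 and PD0325901. All 8 libraries with PD0325901 were below every other library. The AMOTL1 fall was 1.98-fold (log2 -0.99, SE 0.10, adjusted p = 8.48e-09) and 1.73-fold (log2 -0.79, SE 0.10, adjusted p = 1.87e-07). With oxozeaenol AMOTL1 was at 29.4, 21.5, 22.9 and 22.7 CPM, overlapping control (log2 0.04, 95% interval -0.16 to 0.24), and 2.04-fold higher than with PD0325901 (adjusted p = 8.35e-08). AMOTL1 was at 28.1, 29.6, 28.9 and 27.2 CPM with PI103 and at 28.7, 28.0, 28.9 and 29 CPM with PI103 and oxozeaenol. These rises of log2 0.28 (adjusted p = 0.0225) and 0.29 (adjusted p = 0.0171) were lost under 4 and 3 of 13 alternatives. Both were lost without control replicate 2 or 4, and the first also without PI103 replicate 2 (adjusted p up to 0.0841 and 0.0650). The control library of batch 3 (28.0 CPM) lay inside the PI103 range.

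AMOTL2 (chr3:134355874-134375479, minus strand) fell in all 5 treatments by similar amounts. AMOTL2 held 172, 168, 154 and 180 CPM in control, and the 20 treated libraries held between 92.4 and 139 CPM. The falls were 1.5-fold with PI103 (log2 -0.59, adjusted p = 2.40e-05), 1.57-fold with PD0325901 (log2 -0.65, adjusted p = 4.00e-06) and 1.47-fold with oxozeaenol (log2 -0.56, adjusted p = 4.83e-05). In the combinations AMOTL2 fell 1.28-fold with oxozeaenol (log2 -0.36, adjusted p = 0.00345) and 1.43-fold with PD0325901 (log2 -0.51, adjusted p = 7.71e-05). The SE of each was 0.10, and no neighbours among the treated groups differed by the test. The ends of their order did: AMOTL2 was 1.23-fold higher with PI103 and oxozeaenol than with PD0325901 (adjusted p = 0.0231). That call was lost under several alternatives. The paralogs AMOTL1 and AMOTL2 thus went in opposite directions with PI103 and in the same direction with PD0325901.

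LATS2 (chr13:20973032-21061547, minus strand), a kinase that phosphorylates YAP, changed least of the readout genes. LATS2 held 27.8, 27.1, 27.6 and 30.3 CPM in control, 26.5, 26.8, 19.4 and 22.6 CPM with PD0325901 and 25.6, 23.1, 19.8 and 25.5 CPM with oxozeaenol. Its falls of log2 -0.25 with PD0325901 (adjusted p = 0.0352) and -0.26 with oxozeaenol (adjusted p = 0.0289) were near the threshold. They were lost under 6 and 4 of 13 alternatives. The first was lost without replicate 3 or 4 of PD0325901 or without control replicate 1, 3 or 4, and was log2 -0.16 without replicate 3 of PD0325901 (adjusted p = 0.169). The second was lost without replicate 2 or 3 of oxozeaenol or control replicate 4 (adjusted p up to 0.120). LATS2 lay between 27.1 and 34.9 CPM in the 8 libraries of the combinations, with log2 differences from control of 0.02 and 0.10 that were not called.

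Each combination was then set against its single agents. With PI103 and oxozeaenol, 2 of the 10 differed from PI103 (18.3% of all genes tested) and 1 from oxozeaenol (14.9%). YAP1 was 1.51-fold lower in the combination than with PI103 (log2 -0.59, adjusted p = 0.000137), and AXL 1.54-fold lower (log2 -0.62, adjusted p = 0.0407, lost on leaving out any 1 of the 8 libraries, with an adjusted p from 0.0556 to 0.117). CTGF was 2.14-fold higher in the combination than with oxozeaenol (log2 1.10, SE 0.17, adjusted p = 0.000119). With the batch as a block, the number of all genes called against oxozeaenol rose from 2074 to 3090. In that fit 3 more of the 10 were called higher than with oxozeaenol: AMOTL1 (log2 0.25, adjusted p = 0.0456), LATS2 (log2 0.29, adjusted p = 0.0179) and AXL (log2 0.59, adjusted p = 0.0132). Without the block the adjusted p was 0.0967, 0.0559 and 0.0689. Each was also called without oxozeaenol replicate 1 (adjusted p = 0.0104, 0.0342 and 0.0393). AMOTL2 was likewise called higher than with PI103 with the block (log2 0.23, adjusted p = 0.0291 against 0.119 without it) and in a fit of only these 2 groups.

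With PI103 and PD0325901, 6 of the 10 differed from PI103 (38.7% of all genes tested) and 2 from PD0325901 (18.1%). Against PI103, ANKRD1 was 4.78-fold lower (log2 -2.26, adjusted p = 8.63e-06), AXL 2.42-fold (log2 -1.28, adjusted p = 4.82e-05), AMOTL1 2.10-fold (log2 -1.07, adjusted p = 8.56e-09) and YAP1 1.62-fold (log2 -0.69, adjusted p = 8.10e-06). CYR61 (log2 -0.32, adjusted p = 0.0453) was lower and LATS2 (log2 0.25, adjusted p = 0.0456) higher, both near the threshold, and these calls were lost under 7 and 6 of 13 alternatives (adjusted p up to 0.266 and 0.188 with 1 library left out). Against PD0325901, CTGF was 2.28-fold higher in the combination (log2 1.19, SE 0.17, adjusted p = 3.75e-05) and LATS2 1.27-fold higher (log2 0.35, adjusted p = 0.0155). The LATS2 call was lost without PD0325901 replicate 3 or replicate 1 of the combination (adjusted p up to 0.0849). The AXL difference from PD0325901 (log2 0.61, adjusted p = 0.0606) was called with the batch as a block (log2 0.57, adjusted p = 0.0196) and without replicate 2 of the combination (log2 0.85, adjusted p = 0.00149) or PD0325901 replicate 1. Without the block CTGF was the only 1 of the 10 called higher in both combinations than with the partner of PI103 alone, and it was not called against PI103 in either (log2 -0.09 and -0.13). The concentrations were not matched, since the partner was at 50% in the combination.

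Each combination was also compared with the mean of the log2 levels of its 2 agents, the level that effects linear in concentration would give. With PI103 and oxozeaenol 1 of the 10 differed from that mean, where 3.98% of all genes did: CTGF was higher by log2 0.50 (SE 0.14, adjusted p = 0.0427), a call lost under 10 of 17 alternatives (adjusted p up to 0.145). With the block AMOTL2 was called there too (log2 0.22, adjusted p = 0.0434 against 0.200 without it). With PI103 and PD0325901 5 of the 10 differed, where 22% of all genes did. CTGF was higher than the mean by log2 0.53 (SE 0.14, adjusted p = 0.00950) and LATS2 by 0.30 (SE 0.08, adjusted p = 0.0128). ANKRD1 was lower by log2 0.91 on that comparison (-0.91, SE 0.27, adjusted p = 0.0203), AMOTL1 by 0.44 (-0.44, SE 0.09, adjusted p = 0.00117) and YAP1 by 0.27 (-0.27, SE 0.09, adjusted p = 0.0338). Without replicate 2 of the combination the ANKRD1 difference was -0.73 (adjusted p = 0.112), and without replicate 1 of the combination the LATS2 call was lost (adjusted p = 0.0786). The YAP1 call was lost under 8 of 17 alternatives (adjusted p up to 0.136), and AXL was called on leaving out replicate 1 of the combination (adjusted p = 0.0343 against 0.213). For ANKRD1 and AMOTL1 the level in the combination was not called different from that with PD0325901 alone at its full concentration (log2 0.43 and 0.19, adjusted p = 0.352 and 0.197), and for CTGF it was not called different from that with PI103 alone.

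**Figure D3:**
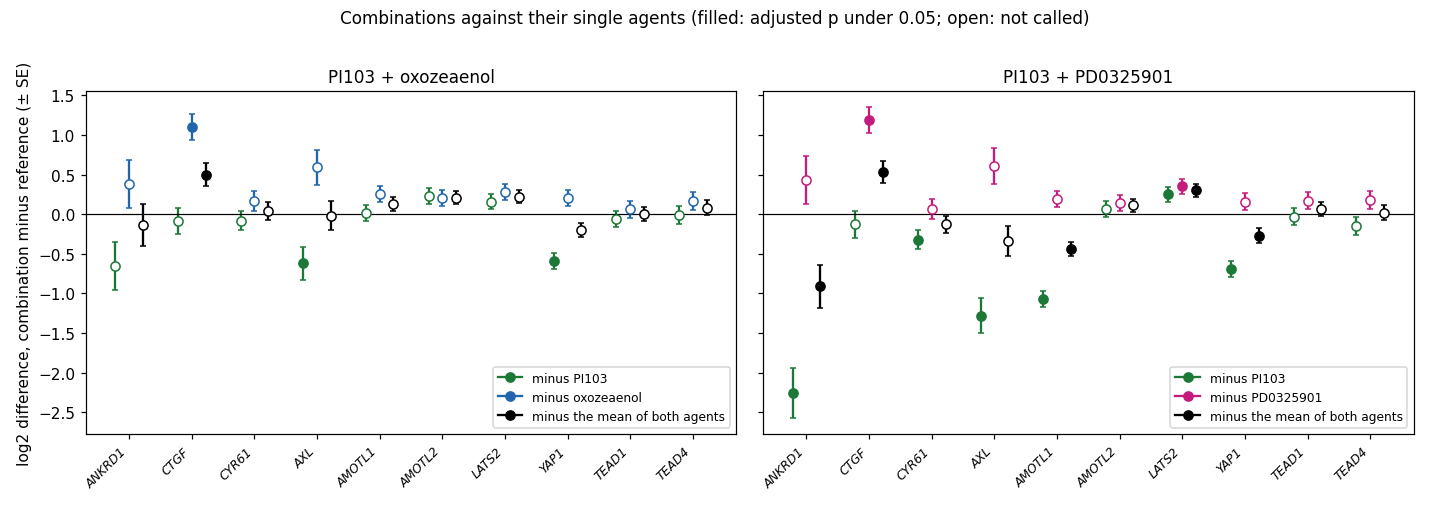
Log2 difference of each combination (left, PI103 with oxozeaenol; right, PI103 with PD0325901) from PI103, from the other agent and from the mean of both, for each of the 10 genes; bars are ± 1 SE, filled points have an adjusted p under 0.05. CTGF lies above oxozeaenol and PD0325901 alone by 1.10 and 1.19, and ANKRD1, AXL, AMOTL1 and YAP1 lie below PI103 in the right panel.

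The 3 single agents were compared with each other as well. Between PD0325901 and PI103 7 of the 10 differed, all lower with PD0325901 (44.5% of all genes called, 21.7% lower): AXL was 3.69-fold lower (adjusted p = 1.66e-07), ANKRD1 6.42-fold (adjusted p = 5.92e-07), CTGF 2.50-fold (adjusted p = 8.98e-07) and AMOTL1 2.40-fold (adjusted p = 3.12e-10), followed by YAP1, CYR61 and TEAD4. The TEAD4 call was lost without PD0325901 replicate 2 (adjusted p = 0.171). Between oxozeaenol and PI103 4 differed, all lower with oxozeaenol (43.1% of all genes called, 20.6% lower): CTGF, YAP1, AXL and ANKRD1, by 1.74-fold to 2.31-fold. AMOTL1 was called as well with the batch as a block (log2 -0.24, adjusted p = 0.0279 against 0.0578 without it) and without oxozeaenol replicate 1 (adjusted p = 0.00501). Between oxozeaenol and PD0325901 3 differed, all higher with oxozeaenol (28.5% of all genes called, 13.4% higher): ANKRD1, AMOTL1 and AXL, the last by 1.60-fold (adjusted p = 0.0272; lost without replicate 2, 3 or 4 of PD0325901 or replicate 1 or 3 of oxozeaenol, up to an adjusted p of 0.104). YAP1, CTGF, CYR61, AMOTL2, LATS2, TEAD1 and TEAD4 were not called between these agents; for CTGF the log2 difference was 0.14 (adjusted p = 0.563).

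Between the combinations 3 of the 10 differed, all lower with PD0325901 (29.9% of all genes called, 15.6% lower): ANKRD1 3.03-fold (adjusted p = 0.000543), AMOTL1 2.11-fold (adjusted p = 2.89e-08) and AXL 1.58-fold (adjusted p = 0.0231; log2 -0.42 and adjusted p = 0.0919 without replicate 2 of PI103 with PD0325901, and also lost without replicate 1 of PI103 with oxozeaenol). All 3 also differed between oxozeaenol and PD0325901 as single agents. Each combination was last set against the agent it lacks. PI103 with oxozeaenol was higher than PD0325901 for 8 of the 10 (36.8% of all genes called, 17.6% higher), led by ANKRD1 (4.07-fold, adjusted p = 3.23e-05), AMOTL1 (2.42-fold) and AXL (2.40-fold), and then CTGF (2.35-fold). The other 4, YAP1, AMOTL2, LATS2 and TEAD4, were higher by 1.20-fold to 1.25-fold, and each of these calls was lost under 4 to 9 of 13 alternatives. CYR61 was called there with the batch as a block (log2 0.30, adjusted p = 0.0277 against 0.0573 without it), in a fit of only these 2 groups and without replicate 4 of the combination (adjusted p = 0.0408). PI103 with PD0325901 differed from oxozeaenol for 4 (43.9% of all genes called): CTGF and LATS2 were higher by 2.07-fold and 1.29-fold, and ANKRD1 and AMOTL1 lower by 2.33-fold and 1.78-fold.

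Other lists of the pathway held genes that rose and genes that fell. Their counts are to be read against the shares of all genes called against control. For the single agents these were 51.4% (PI103), 58.6% (PD0325901) and 51.9% (oxozeaenol). For the combinations with oxozeaenol and PD0325901 they were 55.6% and 64.8%. Each share was divided about evenly between rises and falls. A fall in all 5 treatments was called for 13.5% of all genes tested, and the share with a rise in all 5 is not given. Among the other coactivators and TEAD partners 5 of 7 listed genes were tested, and against control 3 rose and none fell with PI103, 3 rose and 1 fell with PD0325901, 2 rose with oxozeaenol, 4 rose with PI103 and oxozeaenol and 5 rose with PI103 and PD0325901. The median log2 change was 0.31, 0.43, 0.08, 0.43 and 0.38 in that order. WWTR1, which encodes TAZ, rose with PI103 from 13.3 ± 1.47 to 25.3 ± 3.20 CPM (SD, n = 4; log2 0.92, adjusted p = 6.85e-07), where YAP1 did not change by the test. WWTR1 fell with PD0325901 by log2 0.32 (-0.32, adjusted p = 0.0274), a call lost under 6 of 13 alternatives. It rose with PI103 and oxozeaenol (log2 0.43, adjusted p = 0.00412) and with PI103 and PD0325901 (log2 0.30, adjusted p = 0.0361, also lost under 6 of 13), and was not called with oxozeaenol (log2 -0.13). VGLL1, a cofactor that binds TEAD in place of YAP, rose in the 4 treatments other than PI103 alone from 8.60 ± 0.961 CPM to between 18.9 and 22.7 CPM (SD, n = 4; log2 1.13 to 1.40). With PI103 alone the VGLL1 difference was log2 0.26 (adjusted p = 0.0629), called with the batch as a block, in a fit of only these 2 groups and without control replicate 4. Of the WWTR1 exon bases 9.4% lie opposite WWTR1-AS1. TEAD2 and TEAD3 were named after their values were seen. TEAD2 had a mean of 73.6 CPM in control, 67.9 with PI103, 122 with PD0325901 and 114 with oxozeaenol. In the combinations it was 103 CPM with oxozeaenol and 108 with PD0325901. TEAD3 had 28.2 CPM in control, 39.1 with PI103, 29.2 with PD0325901 and 25.8 with oxozeaenol. Its means in the combinations were 32.1 CPM with oxozeaenol and 36.6 with PD0325901.

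All 15 genes of the kinase cascade were tested. With PI103 4 rose and 4 fell, with PD0325901 and with oxozeaenol 5 rose and 6 fell, with PI103 and oxozeaenol 4 rose and 6 fell, and with PI103 and PD0325901 5 rose and 5 fell. Medians lay between -0.19 and -0.02. SAV1, the scaffold of STK3 and STK4, had the largest falls with PD0325901, from 142 ± 14.8 to 49.3 ± 4.27 CPM (SD, n = 4; log2 -1.52, adjusted p = 1.53e-11), with oxozeaenol (log2 -1.12) and with PI103 and PD0325901 (log2 -1.36), and it also fell with PI103 (log2 -0.29, adjusted p = 0.0242, lost under 4 of 13 alternatives) and with PI103 and oxozeaenol (log2 -0.65). In GENCODE release 29 14.9% of the SAV1 exon bases lie opposite ATL1. LATS1, the paralog of LATS2, fell with PI103 from 49.4 ± 3.35 to 32.6 ± 2.96 CPM (SD, n = 4; log2 -0.60, adjusted p = 0.000203) and in the 4 other treatments by log2 -0.83 to -0.96. Both genes therefore fell in all 5 treatments, in which LATS2 changed by log2 -0.26 to 0.10. The kinases MINK1 and TAOK2, which can act on LATS in parallel to STK3 and STK4, rose in all 5 treatments, MINK1 by log2 0.38 to 0.76 and TAOK2 by log2 0.38 to 0.72. In each treatment 1 of them had the largest rise among cascade genes with a mean of at least 1 CPM. MAP4K1, a kinase below that level that was picked after its values were seen, went from 0.423 CPM in control to between 1.00 and 1.16 CPM in the 4 treatments other than PI103 (log2 1.24 to 1.45), and was not called with PI103 (log2 0.61).

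Of 26 upstream regulators and scaffolds 24 were tested. With PI103 6 rose and 5 fell, with PD0325901 5 rose and 9 fell, with oxozeaenol 5 rose and 8 fell, with PI103 and oxozeaenol 7 rose and 6 fell, and with PI103 and PD0325901 5 rose and 9 fell. AMOT, the third angiomotin beside AMOTL1 and AMOTL2, rose from 0.656 ± 0.163 CPM in control to 7.46 ± 3.74 CPM with PD0325901 and 6.57 ± 0.796 CPM with oxozeaenol (SD, n = 4; log2 3.48 and 3.30, adjusted p = 1.18e-09 and 5.24e-09). It also rose in the combinations (log2 2.27 and 3.07) and was not called with PI103 (log2 -0.17). AMOT thus rose with PD0325901, where AMOTL1 and AMOTL2 fell. AJUBA, a LIM protein that inhibits LATS kinases, fell with PI103 from 391 ± 47.0 to 144 ± 4.02 CPM (SD, n = 4; log2 -1.44, adjusted p = 3.39e-11) and in the 4 other treatments (log2 -0.99 to -0.50). The polarity gene PARD3 fell in all 5 treatments, by log2 -0.70 with PD0325901, -0.67 both with oxozeaenol and with PI103 and PD0325901, -0.45 with PI103 and oxozeaenol and -0.29 with PI103. LLGL1, another polarity gene, rose in all 5, by log2 0.65 with PI103, 0.56 with PD0325901, 0.40 with oxozeaenol and 0.67 in each combination.

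Other published YAP targets were mixed. Of 16 listed genes 11 were tested: with PI103 5 rose and 4 fell, with PD0325901 4 rose and 3 fell, with oxozeaenol 4 rose and 2 fell, with PI103 and oxozeaenol 7 rose and 2 fell, and with PI103 and PD0325901 7 rose and 3 fell. Their median log2 change was 0.19, 0.00, 0.12, 0.43 and 0.40 in that order. GADD45A, a stress gene, fell in all 5 treatments, from 82.2 ± 13.5 CPM to between 14.7 and 23.5 CPM (SD, n = 4; log2 -2.48 to -1.80). ASAP1, a GTPase-activating protein for Arf that was picked after its values were seen, also fell in all 5, from 34.7 CPM to between 9.90 and 26.0 CPM (log2 -1.81 with PD0325901 to -0.42 with PI103). CCDC80, an extracellular matrix protein, rose in the 4 treatments other than PI103 by log2 2.00 to 2.48, from 11.7 ± 0.898 CPM to between 46.9 and 65.2 CPM (SD, n = 4), and fell with PI103 (log2 -0.36, adjusted p = 0.0226, lost under 3 of 13 alternatives). GLI2, a factor of Hedgehog signalling, rose with PI103 (log2 1.04, adjusted p = 0.000120) and fell with PD0325901 (log2 -0.77, adjusted p = 0.00304). GLI2 rose in the combinations by log2 0.50 and 0.48, calls lost under 6 of 13 alternatives each, and was not called with oxozeaenol (log2 -0.38). Of the other CCN genes only WISP2 was tested, at no more than 0.571 CPM in any library; it rose with PD0325901 (log2 2.50, adjusted p = 0.00512) and with PI103 and PD0325901 (log2 3.76, adjusted p = 1.88e-05). The WISP2 rise with oxozeaenol (log2 1.93, adjusted p = 0.0453) was lost under 5 of 12 alternatives: without the filter on low counts, or without replicate 1 or 4 of control or of oxozeaenol (adjusted p up to 0.128).

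Genes of SRF and its actin-responsive coactivators, which share several targets with YAP, were also mixed. Of 18 listed genes 16 were tested: with PI103 7 rose and 4 fell, with PD0325901 3 rose and 7 fell, with oxozeaenol 3 rose and 6 fell, with PI103 and oxozeaenol 2 rose and 5 fell, and with PI103 and PD0325901 3 rose and 5 fell. FHL2, a LIM protein, fell in all 5 treatments (log2 -1.21 to -0.70), by most with PI103 and PD0325901 (adjusted p = 1.43e-09), from 178 ± 16.9 CPM in control to 77.0 ± 9.79 CPM (SD, n = 4). TAGLN, an actin-binding protein, rose with PI103 (log2 0.92, adjusted p = 0.000175) and fell with PD0325901 (log2 -0.62, adjusted p = 0.00511) and with oxozeaenol (log2 -1.27, adjusted p = 3.95e-06). In the combinations TAGLN was not called (log2 -0.37 with oxozeaenol and 0.15 with PD0325901), though the former was called with the batch as a block, without replicate 1 of the combination and without control replicate 3 (adjusted p from 0.0139 to 0.265 over 13 alternatives). Of the TAGLN exon bases 11.4% lie opposite PCSK7. MYL9, a myosin light chain, rose in all 5 (log2 0.56 to 1.00). TPM4, a tropomyosin, rose in all 5 as well (log2 0.38 to 0.65, the last with PI103 and oxozeaenol). ZYX, a focal adhesion protein, fell in all 5, by log2 -0.88 with oxozeaenol, -0.77 with PI103 and oxozeaenol, -0.67 with PI103 and PD0325901, -0.57 with PD0325901 and -0.33 with PI103, the last lost under 4 of 13 alternatives.

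**Figure D4:**
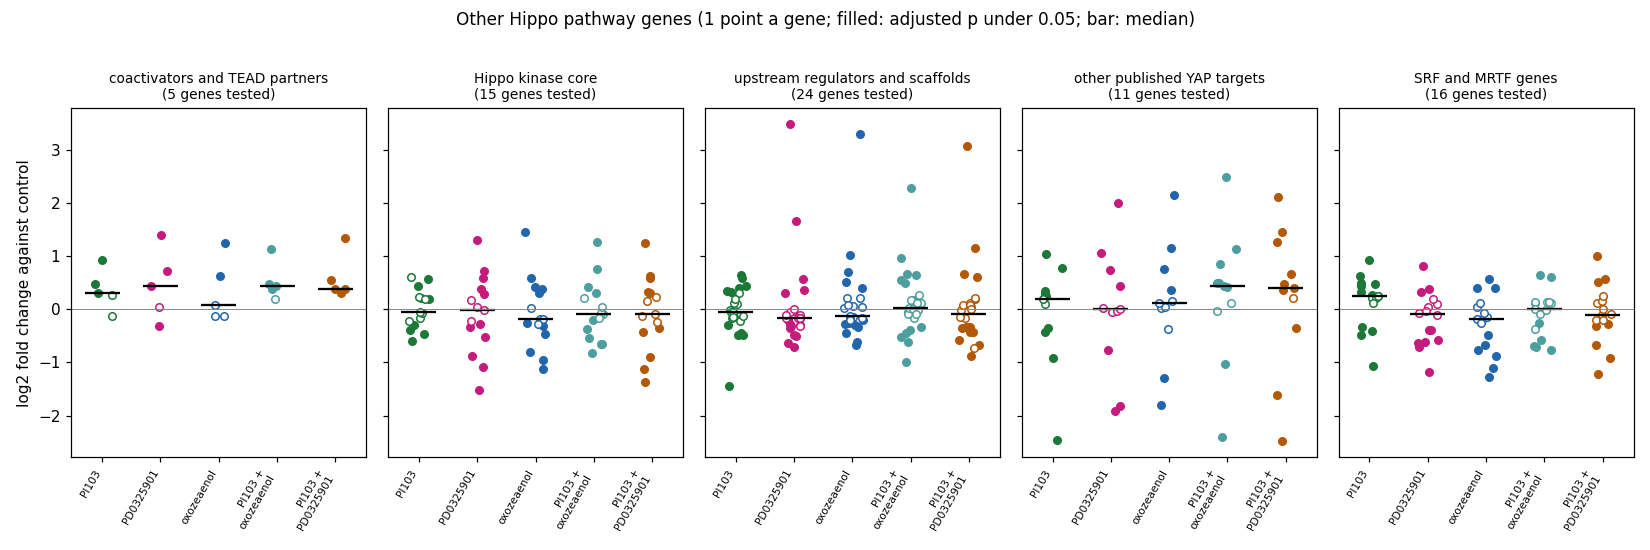
Log2 fold change against control (vertical axis) of the other pathway genes, 1 point a gene, in 5 lists and 5 treatments; filled points have an adjusted p under 0.05 and bars are medians. All 5 lists hold points above and below 0, with AMOT at 2.27 to 3.48 in 4 treatments and GADD45A at -2.48 to -1.80 in all 5.

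Among the 10 genes, log2 CPM over the 24 libraries correlated most between CYR61 and AMOTL2 (Pearson r 0.872), CYR61 and ANKRD1 (0.856) and AMOTL1 and AXL (0.830), and least between AMOTL1 and LATS2 (0.0642). These values describe libraries that share groups and batches and carry no test. Among 10039 tested genes with a mean of at least 5 CPM, the pattern most like that of ANKRD1 was FOSL1, an AP-1 factor (r 0.974), which went from a mean of 55.4 CPM in control to 3.24 CPM with PD0325901. The next for ANKRD1 was DCLRE1A (r 0.965). For AMOTL2 it was FOSL2, another AP-1 factor (r 0.922), and KIAA0753 (r 0.917). CTGF was most like SGK223 (r 0.936) and ETS2 (r 0.917), and CYR61 most like TES (r 0.956) and SOX9 (r 0.954). For AMOTL1 the nearest were JAG1, a Notch ligand (r 0.961), and PRSS12 (r 0.959), and for AXL COL17A1 (r 0.964) and DPYSL2 (r 0.961). YAP1 was most like CDC42BPA and SGPL1 (r 0.964 each), LATS2 like DLC1 (r 0.860) and POGZ (r 0.837), TEAD1 like PHIP (r 0.910) and NF1 (r 0.902), and TEAD4 like POGK (r 0.887) and CSNK1E (r 0.853).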

How the data were processed

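The authors deposited 1 table of whole-number read counts per gene symbol for all 24 libraries, with 5 closing tallies of unassigned reads, which were left out here. As shares of all tallied reads, those without a feature made up 4.24% to 8.57% and those without a unique alignment 4.64% to 6.06%. Libraries were stranded mRNA preparations per the labels' protocols, and the genome build was GRCh38 per the submitters' processing notes. The aligner, the counting program, its strand setting and the annotation are not given in the sources used here. Groups were taken from the sample titles, since the treatment field of later replicates numbers the compounds upward.

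Genes were filtered by edgeR's filterByExpr, which kept 13947 genes with 99.989% of the counts. After TMM scaling, edgeR 4.0.16 (R 4.3.3) was fitted with robust dispersions and 1 coefficient per group over all libraries. In all, 17 contrasts were tested with the two-sided F test and Benjamini-Hochberg adjustment over all genes. SE is the size of the log2 fold change over the square root of its F value, and 95% intervals are ± 1.96 SE. CPM use library sizes scaled by TMM. Exon lengths, overlaps and positions of genes are from GENCODE release 29. Counts range from 63 per library (AXL) to 112183 (ANKRD1), and libraries of 38.1 M to 84.2 M counts limit only the lowest genes.

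The 10 members and all other lists were chosen with earlier results of these data known, so no list is independent evidence. All 10 members are named. Of each other list the largest rise and fall per treatment are named (adjusted p under 0.05, mean of at least 1 CPM), with the values of the same genes in the other treatments. The 2 genes most like each member are those with the highest Pearson correlation of log2 CPM (prior count 2). Alternatives were DESeq2 1.42.0, RLE size factors, no filter on low counts, the batch as a replicate block, only the groups compared, and leaving out each library in turn. The batch number of the labels pairs libraries: over 60 pairs of same-numbered libraries of different groups, the mean correlation of deviations from group means was 0.12, against -0.04 over 180 pairs with different numbers.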

Additional observations from a re-analysis of the deposited data

Results flagged for a closer look

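In 60 sets of 4 libraries (10 genes in 6 groups), 4 held a library far from the other 3 of its group by Dixon's criterion, and chance gives about 1 in 20. CTGF was at 149 CPM in PI103 replicate 1, where the other 3 held 111 to 113 CPM. YAP1 was at 218 CPM in replicate 4 of PI103 with oxozeaenol, where the others held 256 to 258 CPM. AXL was at 3.22 CPM in replicate 2 of PI103 with oxozeaenol, where the others held 3.84 to 3.92 CPM. TEAD1 was at 130 CPM in that same library, where the others held 139 to 141 CPM.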

How the results depend on the processing

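Over 2290 recalculations of the 170 values of members under alternatives, 2152 stayed on the same side of the threshold. Of the rest, 104 lost a call and 34 gained one, and no called value reversed. The 2152 include 40 that changed sign without being called, in 25 comparisons with a main value of at most 0.14 in size. Against control, 11 of 50 comparisons changed call under at least 1 alternative, and the falls of CYR61, ANKRD1 and AMOTL2 kept theirs throughout. The number of members called moved by over 1.5 times in these comparisons. For PI103 with oxozeaenol against PI103 it was 2, with 4 in a fit of only the groups compared and 1 on leaving out any library. Against oxozeaenol it was 1, with 3 in DESeq2, 4 with the replicate block, 2 with only the groups compared, and 1 to 4 with a library left out. For PI103 with PD0325901 against PD0325901 it was 2, with 1 for only the groups compared and 1 to 3 with a library left out. Against the mean of its agents, PI103 with oxozeaenol had 1, with 0 without the filter, 2 with the replicate block and 0 to 1 with a library left out. PI103 with PD0325901 had 5 there, and 3 to 5 with a library left out. For PI103 with oxozeaenol against PD0325901 it was 8, with 5 without the filter and 4 to 8 with a library left out. The causes were not tested. The replicate block changed 10 calls, each given beside its result, and no other.

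Among all genes tested, the number called moved by over 1.5 times in 7 comparisons. Oxozeaenol against PD0325901 had 3976, with 2348 for only the groups compared and 2385 without PD0325901 replicate 2. PI103 with oxozeaenol against the mean of its agents had 555, and 232 to 997 under alternatives. It had 2074 against oxozeaenol, with 1050 without replicate 1 of the combination, and 2553 against PI103, with 4088 for only the groups compared. PI103 with PD0325901 had 3065 against the mean, with 1466 without its replicate 2, and 2521 against PD0325901, with 1222 for only the groups compared. Between the combinations 4170 were called, and 2702 without replicate 2 of PI103 with PD0325901. For the other lists, the count with PI103 in the kinase cascade was 8 and ranged from 5 to 11, and that with oxozeaenol among the CCN genes was 1 and fell to 0 under 5 of 12 alternatives. These list counts were added after seeing the data. Control cells may not have received vehicle, 1 cell line and 1 time were measured, and transcripts say nothing of YAP phosphorylation or location.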

Other observations

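SRF, the factor shared by several of the actin genes listed, fell in all 5 treatments; it is outside the rule for named genes and was picked after its values were seen. SRF had a mean of 65.0 ± 5.71 CPM (SD, n = 4) in control, 46.3 ± 3.58 CPM with PI103 and 42.1 ± 3.84 CPM with PD0325901 (SD, n = 4). The log2 change of SRF was -0.49 with PI103, -0.63 with PD0325901 and -0.68 with oxozeaenol, and in the combinations -0.69 with oxozeaenol and -0.92 with PD0325901 (adjusted p from 3.24e-07 to 0.00137, edgeR).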
